A study of Mus musculus with 6 samples.

Results

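The genes described here are 10 contractile and matricellular genes that the transcription factor SRF and the coactivator YAP are known to switch on. All were measured in mouse embryonic stem cell cultures with and without a short hairpin RNA (shRNA) against Chd9. They are Acta2, Tagln, Cnn1, Tpm1, Tpm2, Myl9, Ctgf (now Ccn2), Cyr61 (now Ccn1), Thbs1 and Ankrd1, out of 19057 genes named on the array. They were taken by name, with every probe that the platform's annotation gives them, which made 24 probes. The control cultures received a control transfection, whose vector content the labels do not give, and the shChd9 cultures received a pHYPER shRNA vector against the chromatin remodeller Chd9. Both groups were electroporated, held under puromycin from 24 h for a further 48 h, and grown in 15% foetal bovine serum with leukemia inhibitory factor on mouse embryonic fibroblasts inactivated with mitomycin C. Each group had 3 samples, each on 1 Illumina bead array. Whether a group's samples were separate cultures is not given in the labels, and the p-values then measure a spread that may be only technical.

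SRF binds a DNA element called the CArG box and, with actin-sensing cofactors of the MRTF family, drives genes of the actin cytoskeleton. YAP and its relative TAZ enter the nucleus when the Hippo kinases are inactive and act through TEAD proteins, which bind the sequence GGAATG. Both routes respond to spreading, tension and serum, and both are strongly used by fibroblasts and myofibroblasts, the cell type of the feeder layer.

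Promoter sequences from RefSeq (GRCm38.p6) were matched by symbol for 7 of the 10 genes. The 4 printed here are examples that hold elements of the factors that define the group. The Tpm1 promoter also holds such an element and is not printed. Each sequence is the 250 bases before the annotated start, read 5′ to 3′ on the gene's strand. Capitals mark CArG boxes with at most 1 mismatch in the central 6 bases and GGAATG or its complement CATTCC. The printed sequences lie at chr19:34255374-34255623, minus strand (Acta2), chr2:156775214-156775463, plus strand (Myl9), chr3:145649986-145650235, minus strand (Ccn1) and chr19:36119845-36120094, minus strand (Ankrd1).
Acta2: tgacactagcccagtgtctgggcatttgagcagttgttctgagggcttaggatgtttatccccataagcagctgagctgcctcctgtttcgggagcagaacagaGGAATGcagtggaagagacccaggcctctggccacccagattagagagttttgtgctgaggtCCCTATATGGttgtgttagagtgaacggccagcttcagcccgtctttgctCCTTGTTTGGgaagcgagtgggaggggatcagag
Myl9: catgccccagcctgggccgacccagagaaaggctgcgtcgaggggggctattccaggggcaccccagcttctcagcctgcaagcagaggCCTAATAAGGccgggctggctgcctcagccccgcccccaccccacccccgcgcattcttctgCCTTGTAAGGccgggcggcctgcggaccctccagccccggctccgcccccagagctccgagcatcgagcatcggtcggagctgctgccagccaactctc
Ccn1: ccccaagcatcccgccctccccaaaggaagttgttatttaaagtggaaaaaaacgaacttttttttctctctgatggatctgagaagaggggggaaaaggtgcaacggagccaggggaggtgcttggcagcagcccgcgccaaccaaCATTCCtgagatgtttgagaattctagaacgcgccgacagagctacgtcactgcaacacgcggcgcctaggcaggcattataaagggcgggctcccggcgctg
Ankrd1: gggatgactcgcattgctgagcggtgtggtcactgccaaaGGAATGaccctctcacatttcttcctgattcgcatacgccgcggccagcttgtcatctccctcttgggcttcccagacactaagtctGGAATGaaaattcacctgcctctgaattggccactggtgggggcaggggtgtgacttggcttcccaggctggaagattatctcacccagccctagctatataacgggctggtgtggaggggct

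The Acta2 promoter held 2 CArG boxes, CCCTATATGG and CCTTGTTTGG, beginning 84 and 34 bases before the start, and 1 GGAATG beginning 146 bases before it. Myl9 held the exact box CCTAATAAGG at 161 bases and CCTTGTAAGG, with 1 mismatch, at 99 bases. Ankrd1 held GGAATG at 210 and 123 bases, Ccn1 held CATTCC at 103 bases, and Tpm1 held GGAATG at 56 bases. Both strands were searched, the CArG box reads alike on both, and no match overlapped another. In all, 2 of the 7 promoters held a CArG box with up to 1 mismatch, against 8.59% of 32841 promoters of this length, and 1 held an exact one, against 1.47%. The TEAD sequence was in 4 of the 7, against 12.6%. A match describes letters in this window and is not evidence of binding, and the promoters of Cnn1 and Tpm2 held no match in this window.

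Stem cell markers were detected in both groups, 2 of 3 tested Chd9 probes read lower in the shChd9 cultures, and feeder transcripts were present on every array. All 8 embryonic stem cell markers were tested, with a mean between 10.96 and 11.27 on each array (log2 intensity, as below). Of 4 Chd9 probes 3 were tested, and they did not move together. The bright ones, ILMN_1235114 and ILMN_2697954, detected on all 6 arrays, were left at 46.3% and 45.8% of control, with no overlap between groups (limma, adjusted p = 0.540 for both over all probes). The dim ILMN_1226311, detected on 5 arrays, stood at 127% of control with overlapping groups (adjusted p = 0.925), and ILMN_2600528, detected on 1 array, was not tested. Detected probes made up 39.2% to 40.8% of each array, and mean raw intensities were between 356 and 464. All 6 arrays lay on 1 slide with each group in neighbouring positions, and effects of position and of group cannot be told apart. Of 26 fibroblast feeder markers on the array 20 were tested, with per-array means of 7.69 to 8.79 in control and 8.02 to 9.21 in shChd9 cultures, and Postn was detected on no array. In such mixed cultures, more cells of a type and more RNA per cell cannot be told apart.

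Of the 10 genes, 9 were measurable in these cultures and 1, Cnn1, lay at the edge of detection. A probe counted as detected on an array where its deposited detection p-value was under 0.05, and was tested where this held on at least 3 of the 6 arrays. That left 18 of the 24 probes, 16 of them detected on all 6 arrays. The 6 others were the single Cnn1 probe and 5 detected on no array, namely ILMN_1237242 and ILMN_1236619 of Acta2, ILMN_1215145 of Tagln, ILMN_1237801 of Tpm1 and ILMN_2787172 of Tpm2. Values below are log2 intensities after background correction and quantile normalization, and since probes differ in brightness for the same amount of RNA, no level is compared between probes.

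**Figure D1:**
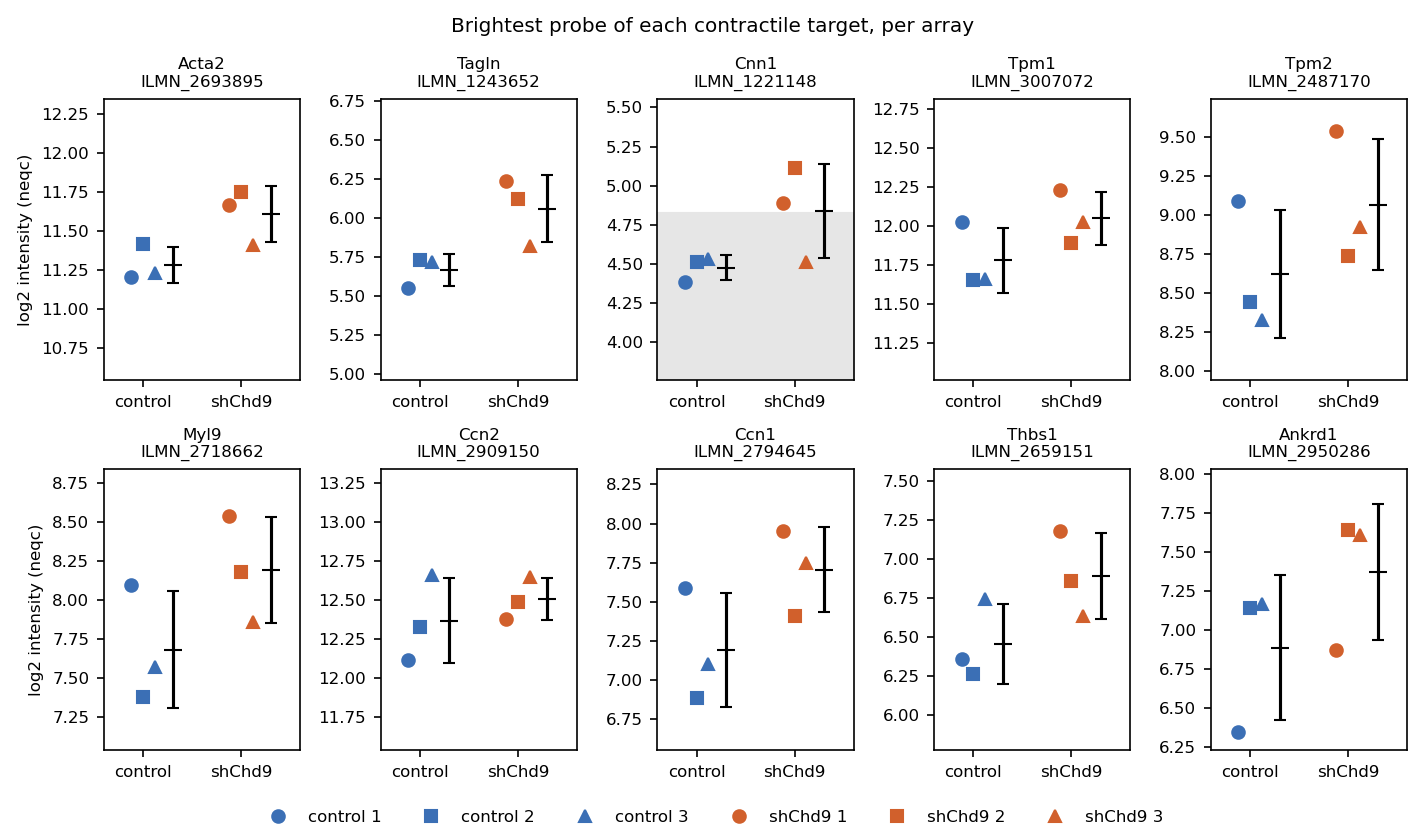
Log2 intensity of the brightest probe of each of the 10 genes on each array, with control arrays in blue and shChd9 arrays in orange, a marker shape for each replicate number (which pairs nothing), and the mean ± SD of 3 arrays in black. Every panel spans the same range of log2 units. The grey band in the Cnn1 panel lies below the lowest detected signal. Tagln alone of the panels with a tested probe has shChd9 arrays that all lie above all control arrays.

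In shChd9 cultures, 17 of the 18 tested probes had a higher mean than in control cultures, and none passed the test over all probes. The median log2 fold change was 0.33, with a range of -0.01 to 0.60, beside a median of 0.00 and 49.2% positive values over the 17719 probes tested. limma gave adjusted p-values between 0.911 and 0.999 for the 18 probes (moderated test, Benjamini-Hochberg over all probes tested), and it called 0% of all probes. At an unadjusted p under 0.05 it found 3 of the 18 higher and 0 lower, where 2.35% of all probes were higher and 5.32% lay in either direction at that level. These were Tagln ILMN_1243652 and Ccn1 ILMN_2794645 and ILMN_1235571, the last detected on 1 control and 3 shChd9 arrays. The groups did not overlap, with shChd9 the higher, in 2 of the 18 probes, where 4.52% of all probes did so. They were Tagln ILMN_1243652 and Ccn1 ILMN_1235571. The Ccn1 probe met the detection filter only through the shChd9 arrays, the group where it was higher, so its place in these counts adds no support. Probes of 1 gene are not independent, and the 18 cover 9 genes. By the brightest probe, all 9 were higher in mean, 2 at an unadjusted p under 0.05 (limma) and 1 without overlap. Over all genes the shares were 49.1% positive, 2.22% higher at that level and 4.4% higher without overlap. The 95% intervals of 13 of the 18 lay within a 2-fold difference in either direction, and the highest upper bound was 2.17-fold.

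**Figure D2:**
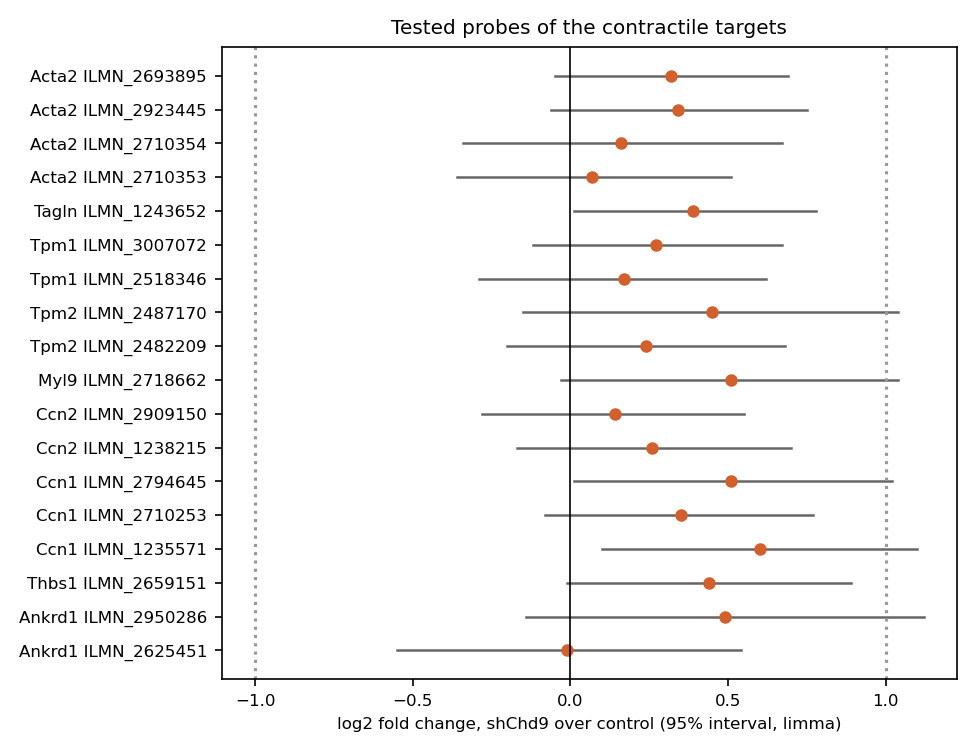
Log2 fold change of shChd9 over control (x axis) for each of the 18 tested probes, with points for limma's estimate and lines for its 95% interval. Dotted lines stand at a 2-fold difference. All points but the dimmer Ankrd1 probe lie to the right of 0, and 15 of the 18 intervals include 0.

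Among the contractile proteins, Acta2 encodes smooth muscle alpha-actin, the actin of myofibroblast stress fibres. Its brightest probe, ILMN_2693895, read 11.21, 11.42 and 11.23 in control and 11.67, 11.75 and 11.41 in shChd9 cultures. The lowest shChd9 array thus fell just inside the control range, and the other 2 lay above it. The difference was 0.32 ± 0.16 (SE, n = 3 each), or 1.25-fold with a 95% interval of 0.967 to 1.61 (limma, adjusted p = 0.925). The next probe, ILMN_2923445, gave 0.34 ± 0.18. The 2 dimmest, ILMN_2710354 and ILMN_2710353, gave 0.16 and 0.07 and turned to -0.04 and -0.12 without shChd9 replicate 2, the array with the highest Acta2.

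Tagln encodes transgelin (SM22), an actin-bundling protein that is an early mark of smooth muscle. Its detected probe, ILMN_1243652, read 5.55, 5.73 and 5.72 in control and 6.24, 6.12 and 5.82 in shChd9 cultures. The groups did not overlap, with a gap smaller than the spread among the shChd9 arrays. The difference was 0.39 ± 0.17 (SE), or 1.31-fold with an interval of 1.01 to 1.71 (limma, unadjusted p = 0.0446, adjusted p = 0.922).

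Cnn1 encodes calponin 1, an actin- and tropomyosin-binding protein of differentiated smooth muscle. Its probe ILMN_1221148 was detected on 0 control and 2 shChd9 arrays and was not tested. It read 4.38, 4.51 and 4.53 in control and 4.89, 5.11 and 4.51 in shChd9 cultures, where the lowest detected signal of any array lay between 4.80 and 4.86. The shChd9 3 value, 4.51, lay below that signal and within the control range, so the groups overlapped and no fold change is given. Myh11, the myosin heavy chain of mature smooth muscle, was detected on no array, and 3 of the 6 smooth muscle markers listed were measurable enough to test.

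Tpm1 and Tpm2 encode tropomyosins, the coiled-coil proteins that lie along actin filaments. The bright Tpm1 probe, ILMN_3007072, read 12.02, 11.65 and 11.66 in control and 12.23, 11.89 and 12.02 in shChd9 cultures. Control 1 reached the level of shChd9 3, and the difference was 0.27 ± 0.18 (SE, limma, adjusted p = 0.932). It ran from 0.18 with shChd9 replicate 1 left out to 0.40 with control replicate 1 left out. The second Tpm1 probe, ILMN_2518346, gave 0.17 and turned to -0.01 without shChd9 replicate 1.

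Tpm2 had one of the widest spreads of the group. Its bright probe, ILMN_2487170, read 9.09, 8.44 and 8.33 in control and 9.54, 8.74 and 8.92 in shChd9 cultures. Control 1 stood above 2 of the 3 shChd9 arrays. The difference was 0.45 ± 0.26 (SE), or 1.36-fold with an interval of 0.903 to 2.06 (limma, adjusted p = 0.925). Single arrays weighed heavily here, and the difference ran from 0.21 with shChd9 replicate 1 left out to 0.68 with control replicate 1 left out. A dim Tpm2 probe, ILMN_2482209, detected on 1 control and 2 shChd9 arrays, gave 0.24 ± 0.19.

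Myl9 encodes the regulatory light chain of non-muscle and smooth muscle myosin, whose phosphorylation sets contraction going. Its probe ILMN_2718662 read 8.10, 7.38 and 7.57 in control and 8.54, 8.18 and 7.86 in shChd9 cultures. Control 1 lay between the shChd9 arrays and the other control arrays lay below them. shChd9 over control gave 0.51 ± 0.24 (SE), or 1.42-fold with an interval of 0.98 to 2.06 (limma, adjusted p = 0.925). Leaving out shChd9 replicate 1 gave 0.34, and leaving out control replicate 1 gave 0.72.

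Among the YAP targets, Ccn2 (Ctgf) and Ccn1 (Cyr61) encode secreted matricellular proteins that are standard readouts of YAP activity. By the brightest probe of each, the 2 genes did not follow each other across the arrays (Pearson r = -0.07). Their second probes, ILMN_1238215 of Ccn2 and ILMN_2710253 of Ccn1, were both lowest on control 2 and highest on shChd9 3. The bright Ccn2 probe, ILMN_2909150, read 12.12, 12.33 and 12.66 in control and 12.38, 12.49 and 12.65 in shChd9 cultures. The groups overlapped almost wholly, and the difference was 0.14 ± 0.18 (SE, limma, adjusted p = 0.968), with an interval of 0.824- to 1.46-fold. It was 0.01 without control replicate 1, the array with the lowest Ccn2, and 0.28 without control replicate 3, the highest. The second Ccn2 probe, ILMN_1238215, gave 0.26 ± 0.19, and 0.11 without shChd9 replicate 3.

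Ccn1 gave the largest difference of the 18 probes, on its dimmest probe. The brightest, ILMN_2794645, read 7.59, 6.88 and 7.10 in control and 7.95, 7.41 and 7.75 in shChd9 cultures. Control 1 stood above the lowest shChd9 array, and the other 2 control arrays lay below every shChd9 array. The difference was 0.51 ± 0.22 (SE), or 1.43-fold with an interval of 1.00 to 2.02 (limma, unadjusted p = 0.0475, adjusted p = 0.922). It ran from 0.36 without control replicate 2 to 0.71 without control replicate 1.

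A second Ccn1 probe, ILMN_2710253, gave 0.35 ± 0.19. The remaining one, ILMN_1235571, had the smallest p of the 18 and was dim, with detection on 1 control array and on all 3 shChd9 arrays. It read 5.12, 4.49 and 4.70 in control and 5.16, 5.22 and 5.72 in shChd9 cultures, which just did not overlap. Its difference was 0.60 ± 0.22 (SE, limma, unadjusted p = 0.023, adjusted p = 0.911). The exact permutation test over the 20 splits, two-sided, gave p = 0.10, the smallest that 3 against 3 allows. That value is fixed once groups do not overlap, and the probe was picked for its smallest p, so the test adds no support.

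Thbs1 encodes thrombospondin 1, a matrix glycoprotein that can activate latent TGF-beta. Its only probe, ILMN_2659151, read 6.36, 6.26 and 6.74 in control and 7.18, 6.86 and 6.63 in shChd9 cultures. Control 3 stood above shChd9 3, and the difference was 0.44 ± 0.20 (SE), or 1.36-fold with an interval of 0.99 to 1.86 (limma, adjusted p = 0.922). It ran from 0.29 without shChd9 replicate 1 to 0.59 without control replicate 3.

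Ankrd1 encodes a stretch-responsive ankyrin repeat protein of muscle, which is also a frequently used YAP readout. Its brighter probe, ILMN_2950286, read 6.35, 7.14 and 7.17 in control and 6.87, 7.64 and 7.61 in shChd9 cultures. In each group 1 array stood well below the other 2, control 1 and shChd9 1. The difference was 0.49 ± 0.28 (SE), or 1.40-fold with an interval of 0.906 to 2.17 (limma, adjusted p = 0.925). It fell to 0.22 without control replicate 1 and reached 0.74 without shChd9 replicate 1, the low array of each group. The dimmer probe, ILMN_2625451, gave -0.01 ± 0.24, so that the 2 Ankrd1 probes did not give the same difference.

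Most of the 18 probes had a larger SD over all 6 arrays than the median probe of their brightness. The SD over the 6 arrays was between 0.21 and 0.48 for the 18 probes, with a median of 0.27, beside 0.24 over all probes tested. Since dim probes scatter more, each was also set beside the tested probes within 0.5 log2 units of its own mean. There 15 of the 18 lay above the median SD, and 11 lay above the 75th percentile. The highest were Tpm2 ILMN_2487170, above 95.9% of 2000 such probes, Ankrd1 ILMN_2950286, above 93.8% of 2624, and Myl9, above 92.5% of 2243. Even Acta2 ILMN_2693895, with an SD of 0.22, lay above 82% of its 752. Tagln was among the steady ones, above 40.9% of its 3362. These SDs hold the difference between groups as well as the spread within them, and several probes belong to 1 gene. The median SD within groups was 0.26. No such value over all probes is given here, so the spread within groups is not compared.

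**Figure D3:**
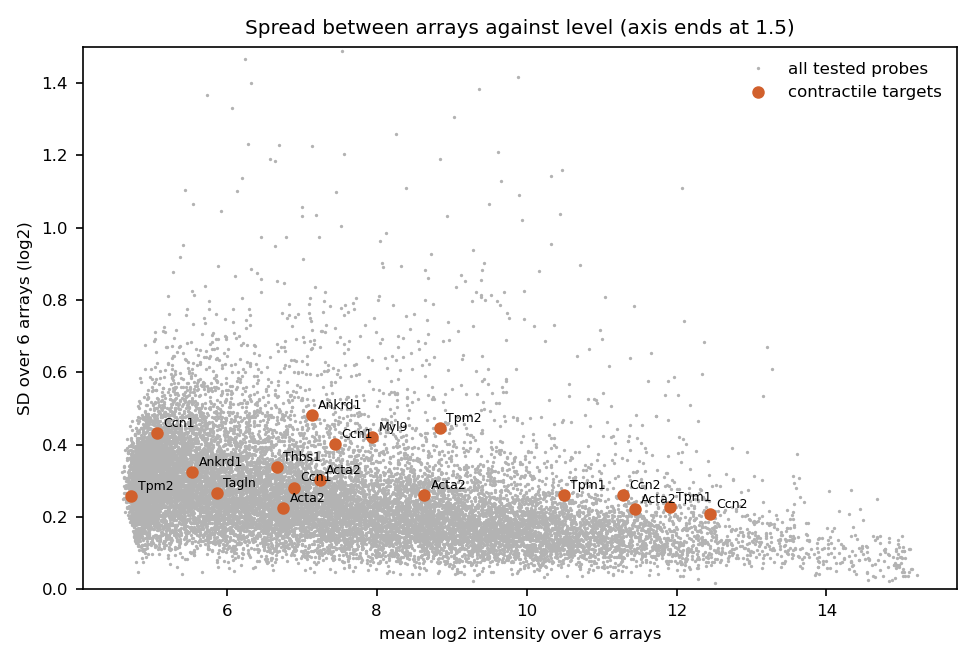
SD over the 6 arrays (y axis, log2 units) against mean log2 intensity (x axis) for all tested probes in grey and the 18 probes of the contractile targets in orange, each named by its gene. The bright probes of Acta2, Tpm1 and Ccn2, at 0.21 to 0.23, stand in the upper part of the grey cloud at their level.

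The 9 measurable genes, each by its brightest probe, followed more than 1 order over the arrays. Tpm1 and Tpm2 ran together (Pearson r = 0.98, Spearman correlation 0.93 over 6 arrays), and so did Tpm1 and Ccn1 (r = 0.98, Spearman 0.99) and Tpm1 and Myl9 (r = 0.91, Spearman 0.81). Acta2 and Tagln formed a second pair (r = 0.93, Spearman 0.89). That pair rests on the brightest Acta2 probe. The dimmer ILMN_2710354, also detected on all 6 arrays, was lowest on shChd9 1 at 6.85, where Tagln was highest at 6.24. Thbs1 ran with Tagln (r = 0.87, Spearman 0.71, and r = 0.70 with group means taken out) and less closely with Myl9 (r = 0.71) and Acta2 (r = 0.64). The sets are thus not sharply apart. Ccn2 and Ankrd1, both lowest on control 1, formed the last pair (r = 0.80, Spearman 0.71). Between the first set and the last pair r over all 6 arrays was between -0.39 and -0.07, as between Tpm2 and Ccn2 (r = -0.39) or Ccn1 and Ankrd1 (r = -0.14). Of the 36 pairs of genes 8 had an r below 0, and the median was 0.48. With group means taken out, r was 0.98 for Tpm1 and Tpm2, 0.80 for Acta2 and Tagln and 0.77 for Ccn2 and Ankrd1. It was then strongly negative between the first set and Ankrd1, at -0.99 for Tpm2, -0.97 for Tpm1, -0.92 for Myl9 and -0.88 for Ccn1. With Ccn2 it was -0.76 for Tpm2, -0.71 for Myl9, -0.69 for Tpm1 and -0.49 for Ccn1. These are descriptions over 6 arrays that share a slide, a normalization and the group difference.

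Feeder markers tracked the first of these sets. By the mean of the 20 tested markers the arrays ran, in log2 intensity, 8.79, 7.69 and 8.30 in control and 9.21, 8.02 and 8.66 in shChd9 cultures. Over the 6 arrays the correlation with that mean was 0.898 for Ccn1, 0.876 for Tpm1, 0.864 for Tpm2 and 0.751 for Myl9 (Spearman 0.886, 0.928, 0.829 and 0.657). It was 0.527 for Thbs1, 0.249 for Tagln, -0.147 for Ccn2 and -0.442 for Ankrd1, and near 0 for Acta2. Without the 2 arrays farthest from the median marker level, control 2 and shChd9 1, over 4 arrays it was 0.628 for Ccn1, 0.596 for Tpm1, 0.647 for Tpm2 and -0.0153 for Myl9. Over the same 4 arrays it was -0.922 for Thbs1, -0.821 for Tagln, -0.708 for Acta2, -0.612 for Ankrd1 and -0.449 for Ccn2. The values over 6 arrays for Myl9, Thbs1, Tagln and Acta2 thus rest on those 2 arrays.

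**Figure D4:**
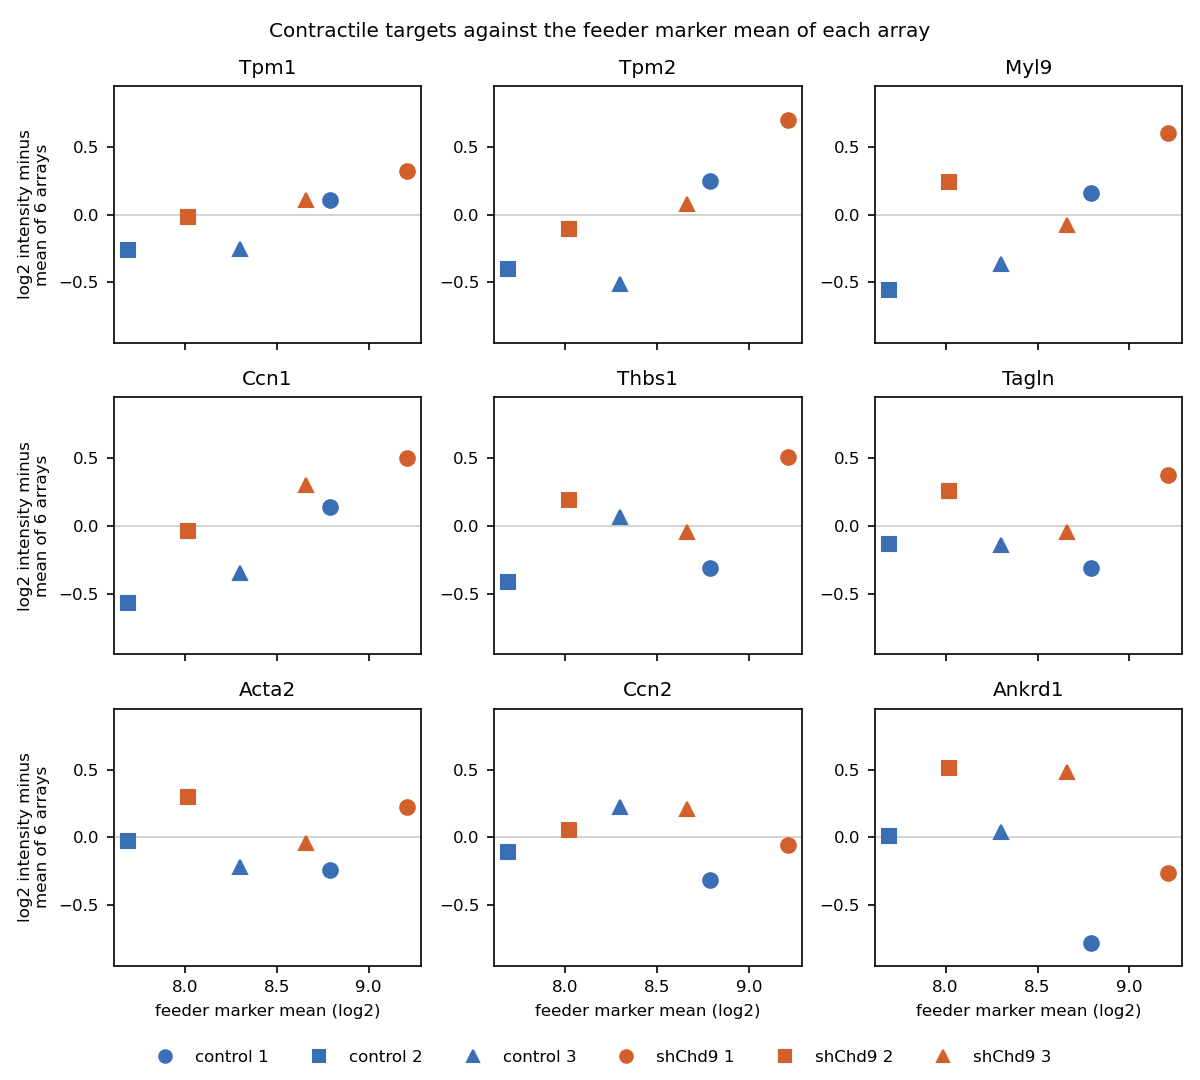
Log2 intensity of each of the 9 measurable genes minus its mean over the 6 arrays (y axis) against the mean of the 20 fibroblast feeder markers on the same array (x axis, log2 intensity), with control arrays in blue and shChd9 arrays in orange. Tpm1, Tpm2 and Ccn1 climb from left to right, whereas Acta2, Ccn2 and Ankrd1 do not.

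The log2 fold change was above 0 for all 20 tested feeder markers, with a median of 0.39 beside 49.1% positive values over all genes, so the higher means of the contractile targets stood beside higher feeder markers. With the feeder marker mean of each array as a covariate, the median over the 18 probes was 0.28, against 0.33 without it. Of the 18, 0 passed (limma, lowest adjusted p = 0.936), and 2 lay at an unadjusted p under 0.05, beside 5.11% of all probes. Under that covariate Tpm2 ILMN_2487170 measured 0.22 ± 0.20 (SE) in place of 0.45, Tpm1 ILMN_2518346 0.00 in place of 0.17, and Ccn1 ILMN_2794645 0.31 ± 0.16 in place of 0.51. Acta2 ILMN_2693895 measured 0.37 ± 0.17 in place of 0.32, and Tagln 0.41 ± 0.19 in place of 0.39. Ankrd1 ILMN_2950286 measured 0.74 ± 0.21 in place of 0.49 (limma, adjusted p = 0.936).

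No measured regulator of these genes passed the test, but 0% of all 10194 genes did, so this does not set the regulators apart. Of 9 genes of SRF and its cofactors 5 were tested, with a median log2 fold change of 0.13. All 5 were higher and 0 lower, where 49.1% of all genes were higher, and none passed (limma, adjusted p over all genes at least 0.954). They included Srf itself at 0.11 ± 0.16 and Mrtfa, the actin-sensing cofactor, at 0.04 ± 0.17. The ETS cofactor gene Elk3 measured 0.37 ± 0.18 and Fhl2, a LIM protein that binds SRF, 0.49 ± 0.27.

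Of 18 genes of the Hippo kinases, YAP, TAZ and TEAD, 13 were tested, with a median of 0.00. Of the 13, 6 were higher, where 49.1% of all genes were. Yap1 read 9.55, 9.22 and 9.54 in control and 9.70, 9.79 and 9.75 in shChd9 cultures. Every shChd9 array lay above every control array, with a difference of 0.31 ± 0.16 (SE, limma, adjusted p = 0.954). The groups did not overlap in 2 of these 13 genes with shChd9 the higher, Yap1 and the scaffold gene Sav1, where 4.4% of all genes did so, and in 3 with shChd9 the lower, where 6.08% did so. The 3 were Wwc1, Stk4 and Tead2. Wwc1 (KIBRA), an upstream activator of the Hippo kinases, measured -0.39 ± 0.20. The gene for TAZ, Wwtr1, measured 0.04 ± 0.25.

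Other targets of the same factors were described in the same way. Among 24 tested actin cytoskeleton targets of SRF, 18 were higher and 6 lower in mean, where 49.1% of all genes were higher. The median was 0.21 beside 0.00 over all 10194 genes, and 4 were higher at an unadjusted p under 0.05 (limma), where 2.22% of all genes were. None passed over all genes (limma, adjusted p at least 0.924). Acta1, skeletal alpha-actin, measured 0.70 ± 0.25 with overlapping groups, and Zyx, the focal adhesion protein zyxin, measured 0.57 ± 0.21. The Zyx arrays read 11.26, 11.09 and 11.38 in control and 12.21, 11.44 and 11.78 in shChd9 cultures, without overlap. In 9 of the 24 the groups did not overlap with shChd9 the higher, where 4.4% of all genes did so, and in 1, Tpm3, with shChd9 the lower. Beside Zyx these were Actg2, Fhl1, Actn1, Pdlim7, Tagln2, Myl6, Flna and Actb, with log2 fold changes of 0.18 to 0.57.

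The 13 tested targets of YAP and TEAD outside the group had a median of 0.18, with 10 higher and 3 lower, where 49.1% of all genes were higher. Of the 13, 0 lay at an unadjusted p under 0.05 (limma). In 1, Amotl2, the groups did not overlap with shChd9 the higher, where 4.4% of all genes did so. Amotl2, a feedback inhibitor of YAP, measured 0.43 ± 0.19 and the growth arrest gene Gadd45a 0.35 ± 0.20 (limma, adjusted p = 0.954 for each). Of 8 immediate early targets of SRF, the growth factor branch, 4 were higher and 4 lower with a median of 0.05, near the share over all genes. The zinc finger gene Egr2 measured 0.25 ± 0.22 and Fosb 0.25 ± 0.23 (limma, adjusted p = 0.956 for each).

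**Figure D5:**
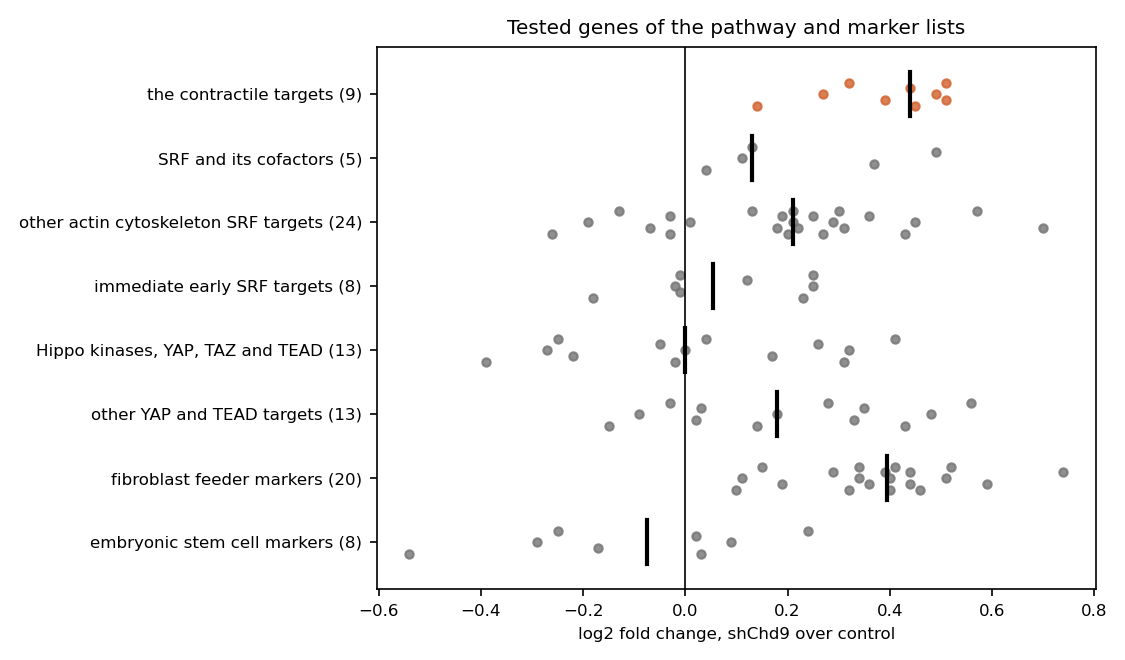
Log2 fold change of shChd9 over control (x axis) for each tested gene of the contractile targets and of 7 other lists, with the number of tested genes in brackets and the median as a black bar. The medians of the contractile targets, 0.44 over 9 genes, and of the feeder markers, 0.39 over 20, lie to the right of the others.

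The genes whose pattern over the arrays was most like the mean of the contractile targets were sought among 2006 genes detected on all 6 arrays with an SD of at least 0.3. Centred on its own mean over arrays and averaged over the 9 genes, that pattern stood at -0.15, -0.27 and -0.17 on the control arrays and at 0.32, 0.16 and 0.11 on the shChd9 arrays. The most alike were Ebf3, a transcription factor gene, with r = 0.989 over 6 arrays, the protease gene Ctsl with 0.984, the FGF receptor gene Fgfr1 with 0.975, the cell death gene Bcl2l11 with 0.973, the collagen gene Col10a1 with 0.962 and the BMP receptor gene Bmpr1a with 0.957. Other detected probes of 2 of these genes did not share the pattern, with r = 0.0659 and 0.0799 for Bcl2l11 and 0.0614 for Bmpr1a. These genes were picked for their likeness among many, which over 6 arrays chance can give.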

How the data were processed

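RNA of 3 control and 3 shChd9 samples was measured on 1 Illumina bead array each, and groups were taken from the transfection in the labels. The deposited table holds, per the file headers, an intensity on a linear scale and the detection p-value of each probe (45281 in all), with no normalization between arrays and a lowest intensity of 75.4 to 90.9. The submitters' processing notes name GenomeStudio, and its version and settings are not given in the sources used here. A second deposited table holds intensities that were found to be the same values quantile normalized, within 0.978 of the mean of the sorted arrays, and served as an alternative, with medians of 111.37 to 111.40 per array, no centring, and no direction to settle.

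Intensities were processed with neqc in limma 3.58.1 (R 4.3.3), which took the negative controls' mean and spread from the detection p-values and used an offset of 16. lmFit and eBayes compared the groups, two-sided, and p-values were adjusted by Benjamini-Hochberg over 17719 probes, or 10194 genes by the brightest probe. Names came from the platform annotation updated through RefSeq (GRCm38.p6), with 1 symbol for 34885 probes, several for 18 and none for 10378. Of 149 entries in the other lists 141 matched. The fit was run on simulated data as a check of the code, and its power for differences as small as those above is not reported here. The genes, lists and tests were chosen with earlier results of these data known. The text names every probe of the 10 genes, those of Chd9, the 2 genes of a pathway list with the smallest p, and the 6 most alike in pattern. Srf, Mrtfa, Yap1, Wwtr1, Postn and Myh11, Stk4, Tead2, Sav1, Tpm3 and 8 other actin targets, where outside that rule, were named after their values were seen. A further list of genes is not reported here. Dim probes are limited by their signal over background, and 3 arrays per group limit the precision.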

Additional observations from a re-analysis of the deposited data

How the results depend on the processing

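Under no background correction, normexp without controls (offset of 50), median scaling, the authors' deposited series table, 3 other filters on dim probes, the feeder marker covariate, array quality weights and each array left out, limma called 0 probes, 0 genes and 0 of the 18 probes of the contractile targets, as did averaging the probes of a gene for genes. The number of those probes at an unadjusted p under 0.05 was 3 as reported and 5 with no filter on dim probes. It was 4 with no background correction, normexp, median scaling and the series table, and 2 with the covariate and with array weights. Over all probes tested, 5.32% lay at that level in either direction as reported, and 4.01% to 5.67% under these other settings. With single arrays left out, the number ran from 0 without control replicate 2 to 4 without control replicate 1 or shChd9 replicate 3. The share of all probes then ran from 3.89% to 7.77%. The median log2 fold change of the 18 probes was 0.22 without background correction and from the series table. It was 0.26 with normexp and 0.38 with median scaling, which moved the median of all probes to 0.03. With single arrays left out this median ran from 0.27 to 0.37, where feeder markers had medians of 0.13 to 0.63. The dimmer Ankrd1 probe, at -0.01, turned to 0.00 with median scaling, to 0.16 with the covariate, and ran from -0.22 to 0.18 over the arrays left out. Tpm1 ILMN_2518346 ran from -0.01 (without shChd9 replicate 1) to 0.34, Acta2 ILMN_2710354 from -0.04 to 0.40 and ILMN_2710353 from -0.12 to 0.18, both lowest without shChd9 replicate 2. The cause was not tested. The median SD over arrays ran from 0.21 to 0.33. No paired analysis was possible because the labels give no replicate numbers, and those used here follow the order of deposit and only name the arrays.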
